A study of Mus musculus with 24 samples.

Results

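The Sult2a genes encode cytosolic sulfotransferases that act on hydroxysteroids. The 4 members described here, Sult2a1, Sult2a2, Sult2a3 and Sult2a5, were taken by gene symbol as all rows of the deposited expression table that carry one of these names. They are 4 of its 2372 genes. The table covers RNA from whole livers of 24 mice, 12 of each sex, after 3 weeks of Lieber-DeCarli liquid diet with alcohol, which all groups received. Each mouse had 2 injections of vectors made from adeno-associated virus (AAV), each carrying a short hairpin RNA for knockdown. The first was AAV-shControl or the pair AAV-shKdm5b and AAV-shKdm5c (the Kdm5 vectors), aimed at histone H3 lysine demethylases, and the second was AAV-shControl or AAV-shAhR (the AhR vector), aimed at the aryl hydrocarbon receptor. In each sex this gives control mice with AAV-shControl at both injections, mice with the Kdm5 vectors and AAV-shControl, mice with AAV-shControl and the AhR vector, and mice with the Kdm5 and AhR vectors together (both). There were 3 mice in each of the 8 groups, and no group was free of alcohol or of virus. The labels used here give no age, strain, promoter, cell type of expression, cage or batch.

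Sulfotransferases of this family move a sulfonate group from the donor PAPS onto the hydroxyl group of steroids such as dehydroepiandrosterone and of bile acids. The sulfated product is more soluble in water, is usually inactive as a hormone, and is more easily excreted. In adult rodent liver these enzymes are known for much higher expression in females than in males, and nuclear receptors that sense bile acids and foreign compounds are known to regulate them. In rodents the family has grown by local duplication, so that several near-identical genes stand side by side.

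The values are FPKM, read fragments of a gene set relative to the length of its transcript and to all fragments mapped in that library, as the authors deposited them. Over the genes of the table they sum to 281871 to 326460 in female libraries and 380206 to 429780 in those of males. The sums say nothing of read depth, which is unknown. Kdm5c, the targeted gene that was analysed here, was at 6.80 ± 0.41 FPKM (SD, n = 3) in control males and 5.14 ± 0.661 FPKM with the Kdm5 vectors (log2 fold change -0.38, adjusted p = 0.139). In females it was at 10.3 ± 0.906 and 9.63 ± 0.503 FPKM (-0.09, adjusted p = 0.66). A fall passed in males when the Kdm5 vectors were added to the AhR vector, from 7.47 ± 0.483 to 5.11 ± 0.25 FPKM (-0.51, adjusted p = 0.0124), and not in the same comparison in females (-0.25, adjusted p = 0.29). The 4 hepatocyte markers in the table, Apoa1, Serpina1a, Ass1 and Tat, summed to 12166 FPKM or more in every library.

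All 4 genes lie in a 499 kb stretch of chromosome 7 (build GRCm38.p6, RefSeq). In order along the chromosome, Sult2a5 (Entrez 434264) spans chr7:13623967-13670807 and Sult2a2 (100043194) spans chr7:13733506-13779637. Sult2a1 (20859) follows at chr7:13796246-13837410 and Sult2a3 (629203) at chr7:14067555-14123048. Sult2a2 and Sult2a5 are on the plus strand, the other two on the minus strand. In the GENCODE transcripts Sult2a1, Sult2a3 and Sult2a5 have 6 exons and 858 coding bases each. The Sult2a2 model has 4 exons and 585 coding bases, and lacks the 273 bases that match positions 472 to 744 of Sult2a1. The length by which the authors scaled Sult2a2 is not given in the sources used here, so its level relative to the other copies is uncertain.

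The first 120 coding bases are printed because they show how closely the copies match at the start of the message. Capitals mark bases that differ from Sult2a1. Positions count from 1 at the A of the start codon.
Sult2a1: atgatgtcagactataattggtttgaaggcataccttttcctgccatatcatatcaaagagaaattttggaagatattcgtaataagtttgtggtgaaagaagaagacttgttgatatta
Sult2a2: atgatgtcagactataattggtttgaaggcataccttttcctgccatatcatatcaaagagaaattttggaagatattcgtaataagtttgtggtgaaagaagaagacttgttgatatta
Sult2a3: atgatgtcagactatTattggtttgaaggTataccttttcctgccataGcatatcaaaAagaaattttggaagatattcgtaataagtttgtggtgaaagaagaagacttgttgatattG
Sult2a5: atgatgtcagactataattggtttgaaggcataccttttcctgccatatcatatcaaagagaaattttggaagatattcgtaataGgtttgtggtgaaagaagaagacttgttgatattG
Sult2a1 and Sult2a2 are identical in this stretch, Sult2a5 differs at 2 bases and Sult2a3 at 5. A fragment from this stretch cannot be assigned to Sult2a1 or Sult2a2 from its sequence alone. Coding bases 200 to 259 are printed because they tell all copies apart, with capitals again marking differences from Sult2a1.
Sult2a1: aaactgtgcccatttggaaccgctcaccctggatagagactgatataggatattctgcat
Sult2a2: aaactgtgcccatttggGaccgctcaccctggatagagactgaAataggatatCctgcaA
Sult2a3: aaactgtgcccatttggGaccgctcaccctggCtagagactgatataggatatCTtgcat
Sult2a5: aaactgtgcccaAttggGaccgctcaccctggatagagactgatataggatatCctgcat
Here Sult2a2 and Sult2a3 each differ from Sult2a1 at 4 of 60 bases, and Sult2a5 differs at 3.

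Over the aligned coding bases, Sult2a1 and Sult2a2 were 97.9% identical, with 12 differences in 585 bases. Sult2a1 was 94.9% identical to Sult2a5 and 93.7% identical to Sult2a3. The lowest identity among the members was 93.5%, between Sult2a3 and Sult2a5. Sult2a8, another gene of the cluster, matched Sult2a1 at 69.5% of aligned bases. Of all 50-base windows of the transcript, 62.1% in Sult2a2, 34.5% in Sult2a5, 33.2% in Sult2a1 and 8.36% in Sult2a3 occur unchanged in some other Sult gene. With windows of 100 bases the shares were 34.6%, 16.6%, 11.4% and 0%. Sult2a3 is thus the copy with the fewest shared windows and Sult2a2 the one with the most. How reads that fit several copies were counted is not given in the sources used here, so the values of single copies, Sult2a2 above all, are uncertain, and the sum over the 4 genes is given beside them. The sum does not settle reads shared with copies outside the 4. Sult2a4, for one, holds 5.05% of the 50-base windows of Sult2a1, 14.0% of Sult2a2, 3.92% of Sult2a3 and 17.0% of Sult2a5.

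**Figure D1:**
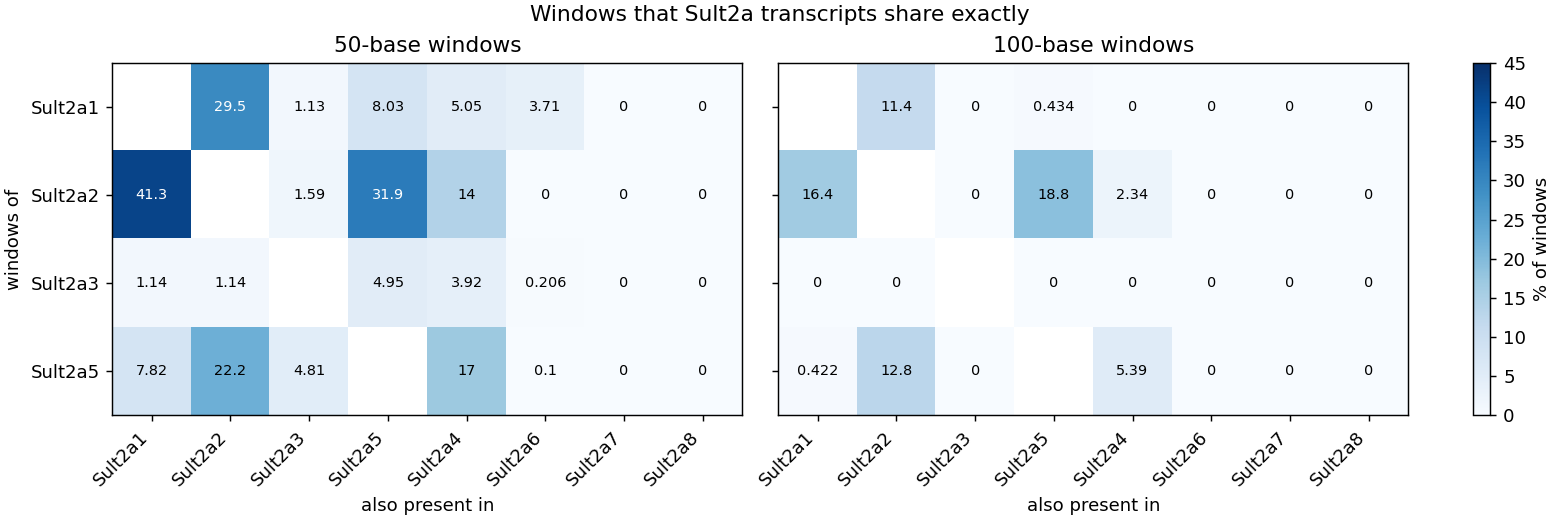
Share of 50-base windows (left) and 100-base windows (right) of each Sult2a transcript (rows, GENCODE, GRCm38) that are found unchanged in another Sult2a gene (columns), in percent; blank cells are a gene with itself. Sult2a2 shares 41.3% of its 50-base windows with Sult2a1 and 31.9% with Sult2a5, and no window is shared with Sult2a8.

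Expression of the 4 members was confined to females among these 24 libraries, apart from traces. Sult2a8, which is not a member here, was higher in control males than in control females. In the 12 females, Sult2a1 ran from 46.8 to 841 FPKM with a median of 377, and Sult2a2 from 48.7 to 657 with a median of 362. Sult2a3 ran from 0.85 to 27.4 FPKM with a median of 6.61, and Sult2a5 from 0.33 to 8.31 with a median of 3.96. These are levels per transcript length. Sult2a1 and Sult2a2 held 50.6% and 47.4% of the summed female FPKM of the 4 genes, against 1.42% for Sult2a3 and 0.558% for Sult2a5. In males, Sult2a3 and Sult2a5 were listed at 0 in 12 of 12 libraries, Sult2a1 in 10 and Sult2a2 in 9.

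The highest male values were 0.23 FPKM for Sult2a1 and 0.32 FPKM for Sult2a2, both in 1 mouse with both vectors. The other male values above 0 were 0.12 FPKM of Sult2a1 in 1 mouse with the AhR vector, and 0.17 and 0.16 FPKM of Sult2a2 in 2 mice with the Kdm5 vectors. No control male had a value above 0 for any member. None of 8 widely used genes in the table was listed at 0 in any library.

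**Figure D2:**
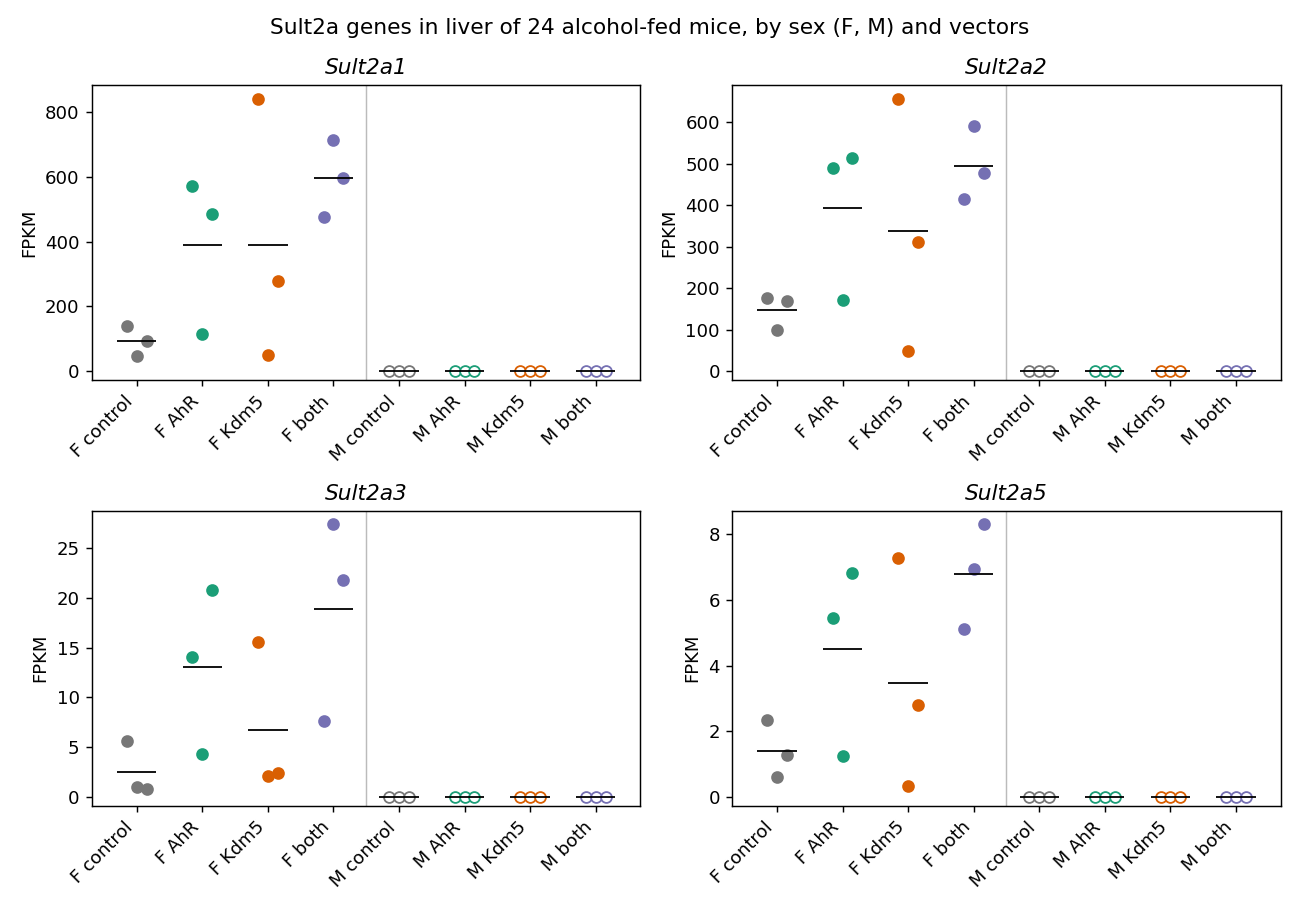
FPKM of each Sult2a gene in every library, by sex (F, filled points; M, open points) and vectors, with 1 point per mouse and a bar at the mean of 3; the vertical axes start at about 0 and differ between panels. Male points lie at or near 0, and the 3 females with both vectors lie above the 3 control females for each gene.

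Tests were made with limma on log2(FPKM + 0.5), with p-values adjusted by the Benjamini-Hochberg method over 2299 genes and a threshold of 0.05. Genes needed 1 FPKM or more in 3 or more libraries to be tested. Log2 fold changes are given ± their standard error. All 4 members passed the filter, and did so through the female libraries. With control vectors every female had a value above 0 for each member and every male was listed at 0, so this difference is given by its levels, with no p and no fold. The fit called all 4 members higher in females, beside 42.5% of all tested genes, and nothing is read from that count. Across the table the median female-minus-male difference was 0.15 on the log2 scale.

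Sult2a1, an abundant copy that in mouse sulfates dehydroepiandrosterone and bile acids, was at 138, 46.8 and 92.6 FPKM in the 3 control females. With the AhR vector it was at 572, 114 and 485 FPKM, and with the Kdm5 vectors at 841, 48.9 and 278. With both it was at 475, 712 and 597 FPKM. The 3 females with both vectors all lay above the 3 controls. With either vector alone, 2 mice lay above the controls and the remaining mouse lay among them, so those groups overlapped with the controls. Group means were 92.5 ± 45.6 FPKM in controls, 391 ± 243 with the AhR vector, 389 ± 408 with the Kdm5 vectors and 595 ± 118 with both (SD, n = 3 each). Sult2a1 rose with both vectors by 2.79 ± 0.68 on the log2 scale, a 6.92-fold difference (adjusted p from limma = 0.0170).

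Sult2a2, whose sequence is the closest to Sult2a1, was at 176, 100.2 and 169 FPKM in control females. It was at 491, 171 and 515 FPKM with the AhR vector and at 657, 48.7 and 311 with the Kdm5 vectors. With both it was at 414, 592 and 479 FPKM. Again the group with both vectors did not overlap with the controls and the other groups did. The means were 148 ± 41.9, 392 ± 192, 339 ± 305 and 495 ± 89.9 FPKM in the same order. The difference between both vectors and control was 1.76 ± 0.58 on the log2 scale, 3.39-fold, and missed the threshold (adjusted p from limma = 0.0532).

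Sult2a3, the copy with the fewest shared windows, was at 5.61, 1.03 and 0.85 FPKM in control females. It was at 14.1, 4.28 and 20.8 FPKM with the AhR vector and at 15.6, 2.07 and 2.38 with the Kdm5 vectors. With both it was at 7.60, 27.4 and 21.8 FPKM. Control mouse 1 stood above the other two controls, yet below every mouse with both vectors. Sult2a3 rose with both vectors by 2.88 ± 0.63 on the log2 scale, 7.37-fold (adjusted p from limma = 0.00979), from a mean of 2.50 ± 2.70 to 18.9 ± 10.2 FPKM.

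Sult2a5, the lowest of the 4, was at 2.36, 0.60 and 1.27 FPKM in control females. It was at 5.46, 1.24 and 6.84 FPKM with the AhR vector and at 7.27, 0.33 and 2.80 with the Kdm5 vectors. With both it was at 5.11, 6.96 and 8.31 FPKM. The lowest mouse with both vectors stood above the highest control. Sult2a5 rose with both vectors by 2.02 ± 0.56 on the log2 scale, 4.05-fold (adjusted p from limma = 0.0293), and its means were 1.41 ± 0.888 and 6.79 ± 1.61 FPKM.

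Thus 3 of the 4 genes passed with both vectors in females, where 11.6% of all tested genes were called. All 4 lay above every control without overlap, which 20.1% of all tested genes did. The median log2 fold change of the 4 genes was 2.40, beside 0.02 over all tested genes. The summed level of the 4 genes, which depends less on how reads were divided among these 4 copies, was 245 ± 88.1 FPKM in control females and 1115 ± 218 FPKM with both vectors. Its range was 149 to 322 in controls and 902 to 1338 with both. With the AhR vector it was 800 ± 442 FPKM and with the Kdm5 vectors 738 ± 721. In whole liver, fewer cells of a type and less RNA per cell cannot be told apart.

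The adjusted p-values and standard errors above depend on the male libraries, as do those given below from the fit over all 8 groups. The spread within groups was 1.06 to 1.28 on the log2 scale in females and 0 to 0.238 in males, where the genes are at or near 0, and the fit shares 1 spread over the 8 groups. In a fit on the 12 females alone the differences were the same and 0 of 4 members passed, with adjusted p from limma of 0.0998, 0.179, 0.0851 and 0.132 for Sult2a1, Sult2a2, Sult2a3 and Sult2a5. The standard errors of the 4 differences in that fit were 0.92, 0.79, 0.87 and 0.77, in the same order. There 29 of 2265 genes were called, and all 4 members had an unadjusted p under 0.05, as did 27.4% of the genes. In the fit over all 8 groups, the females with both vectors were also left out singly. Without mouse 2 or mouse 3, 1 member passed, where 105 of 2296 and 77 of 2298 genes were called. Without mouse 1, 3 members passed, where 140 of 2299 genes were called.

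Neither vector alone gave a change that passed. With the AhR vector the differences from control were 1.90 ± 0.68 for Sult2a1, 1.28 ± 0.58 for Sult2a2, 2.29 ± 0.63 for Sult2a3 and 1.26 ± 0.56 for Sult2a5 on the log2 scale. Their adjusted p from limma were 0.225, 0.36, 0.151 and 0.343, and 0.217% of all tested genes were called in this comparison. The unadjusted p was under 0.05 for 4 of 4 members and for 12.9% of all tested genes. In the fit on the females alone it was under 0.05 for 1 of 4 members and 10.5% of genes. With the Kdm5 vectors the differences were 1.42 ± 0.68, 0.58 ± 0.58, 1.08 ± 0.63 and 0.64 ± 0.56 in the same order. Their adjusted p from limma were 0.212, 0.596, 0.314 and 0.529, and 6.87% of all tested genes were called. Before adjustment 1 of 4 members and 23.3% of all tested genes were under 0.05. In the fit on the females alone, 0 of 4 members and 20.4% of genes were. These comparisons and the one with both vectors use the same 3 control mice.

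The mice with the Kdm5 vectors were the least alike. Mouse 1 of that group had the highest Sult2a1 and Sult2a2 of all 12 females, and mouse 2 had the lowest Sult2a2 and Sult2a5. Between them the levels differed 17.2-fold for Sult2a1 and 22.0-fold for Sult2a5. With both vectors the highest mouse exceeded the lowest 1.50-fold for Sult2a1 and 1.63-fold for Sult2a5. The contrast was smaller for Sult2a3, at 7.54-fold with the Kdm5 vectors, 6.60-fold in controls and 3.61-fold with both. Without mouse 2, the lowest of the Kdm5 group for each member, 2 members passed against control, where 74 of 2299 genes were called. Without mouse 1 none did, where 86 of 2298 genes were called. These refits also share their spread with the males.

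Both vectors were also set against each vector alone. Against the Kdm5 vectors the differences were 1.38 for Sult2a1, 1.18 for Sult2a2, 1.80 for Sult2a3 and 1.37 for Sult2a5 on the log2 scale, and 0 of 4 passed (limma), where 2.09% of all tested genes were called. Before adjustment 2 of 4 members and 21.6% of all tested genes were under 0.05. In the fit on the females alone, 0 of 4 members and 18.2% of genes were. In the fit over all 8 groups without Kdm5 mouse 1, the highest of that group for each member, 4 of 4 passed. There 95 of 2298 genes were called, and the spread is still shared with the males. Against the AhR vector the differences were 0.89, 0.48, 0.59 and 0.76, and 0 of 4 passed, where 0.696% of all tested genes were called. Before adjustment 0 of 4 members and 15.4% of all tested genes were under 0.05. The 95% interval of that difference for Sult2a1 ran from -0.52 to 2.30, so a difference of more than 4-fold is within it. In the fit on the females alone that interval ran from -1.16 to 2.94. The interaction of the vectors in females, the effect of both minus the sum of the single effects, was between -0.53 and 0.11. It passed for 0 of 4 genes (limma), where 0.609% of all tested genes passed, and before adjustment 0 of 4 members and 10.2% of all tested genes were under 0.05. Its interval for Sult2a1 ran from -2.52 to 1.47, and from -3.43 to 2.37 in the fit on the females alone.

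Ordered by mean, the female groups ran control, Kdm5, AhR and both from low to high for each of the 4 genes, with nearly equal Kdm5 and AhR means of Sult2a1. The ranges of neighbours in that order overlapped for each gene. Control and both, at its ends, were the groups whose ranges did not overlap. The female groups lay above every male group for each gene.

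**Figure D3:**
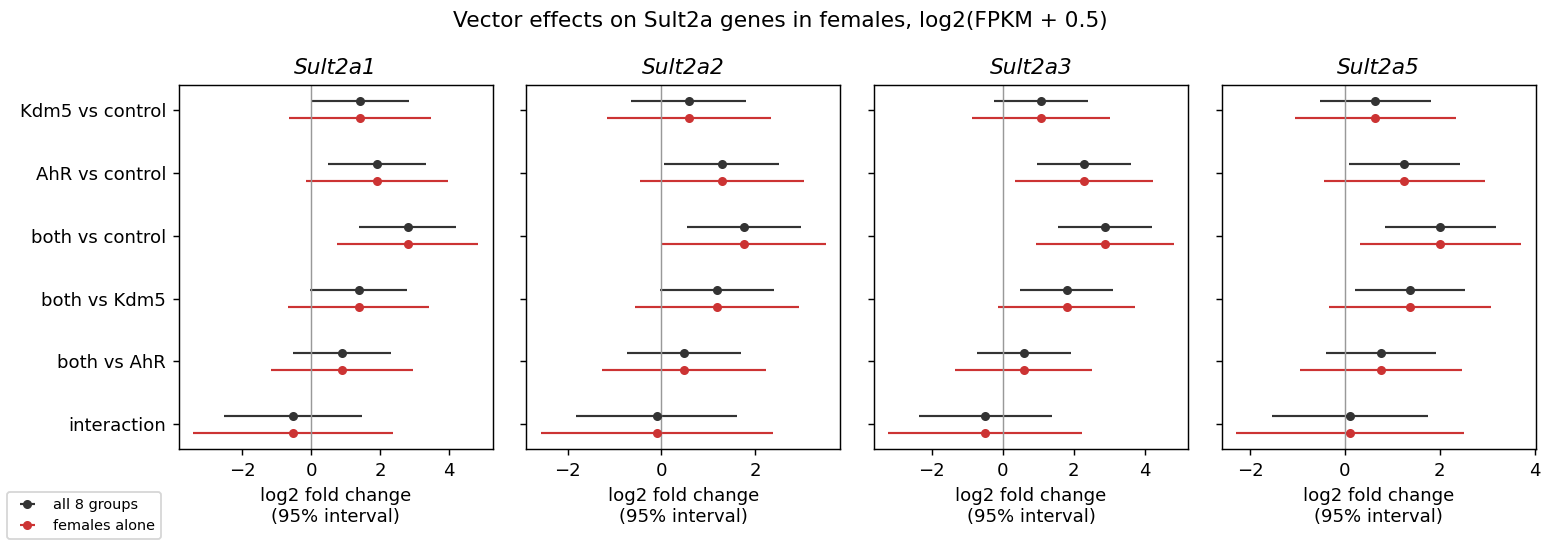
Log2 fold changes on log2(FPKM + 0.5) for the 6 comparisons of vectors in females, with 95% intervals, from the fit over all 8 groups (dark) and from the fit on the 12 females alone (red). Points coincide and intervals are wider in females alone; for both vectors against control the intervals of the 4 genes lie above 0 in each fit.

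In males no comparison of vectors called a member, and folds are not given because the values are at or near 0. With limma, 0 of 4 members passed and 0 of 4 had an unadjusted p under 0.05 in each of the 6 male comparisons. Sult2a3 and Sult2a5 were at 0 in all 12 males and the other members near 0, so a fall could not show. The fit also shares the wider spread of the females, so nothing is read from these counts. The share of all tested genes called was 1.22% for the Kdm5 vectors, 1.09% for the AhR vector and 2.35% for both against control. It was 3.26% for both against the AhR vector, 0.913% for both against the Kdm5 vectors and 1.61% for the interaction.

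The female effect minus the male effect was also computed, but it says little for these genes. Sult2a3 and Sult2a5 were at 0 in all 12 males, so their difference restates the female effect, and Sult2a1 and Sult2a2 were too near 0 in males for a fall to show. For both vectors it was 2.61 ± 0.96 for Sult2a1 and 1.52 ± 0.83 for Sult2a2 on the log2 scale, with adjusted p from limma of 0.0934 and 0.234. Over the 4 members 0 passed, where 5.92% of all tested genes were called, and before adjustment 3 of 4 members and 27.4% of all tested genes were under 0.05. For the AhR vector 0 of 4 passed, where 0.565% of all tested genes were called, and before adjustment 1 of 4 members and 13.8% of all tested genes were under 0.05. For the Kdm5 vectors 0 of 4 passed, where 1.74% of all tested genes were called, with 0 of 4 members and 17.1% of all tested genes under 0.05 before adjustment.

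The balance of the abundant copies also varied among females. The ratio of Sult2a2 to Sult2a1 FPKM within a library was 1.27 to 2.14 in controls and 0.802 to 0.871 with both vectors, and these ranges did not overlap. It was 0.858 to 1.50 with the AhR vector and 0.781 to 1.12 with the Kdm5 vectors. The means were 1.75 ± 0.439 in controls, 1.14 ± 0.327 with the AhR vector, 0.965 ± 0.170 with the Kdm5 vectors and 0.835 ± 0.0345 with both. Since these copies share 50-base windows, the ratio depends on how reads were divided, and the part of that in the difference was not tested. Among the low copies, Sult2a5 over Sult2a3 ran from 0.159 to 1.49 over the 12 females.

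**Figure D4:**
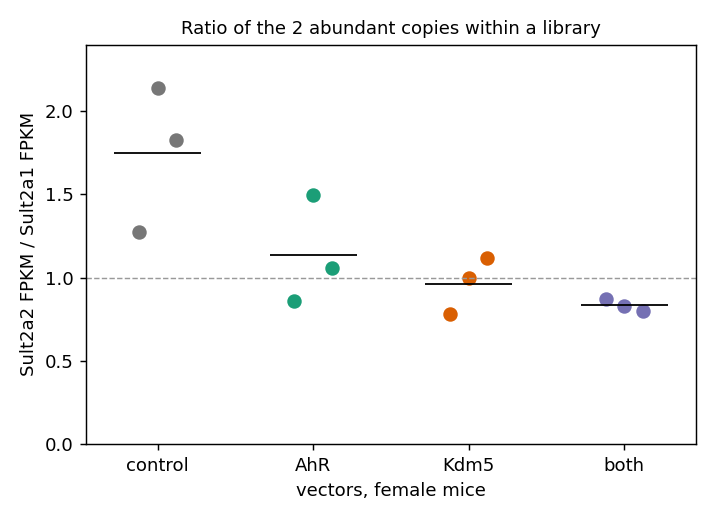
Ratio of Sult2a2 FPKM to Sult2a1 FPKM within each female library, by vectors, with 1 point per mouse, a bar at the mean of 3 and a dashed line at 1. The 3 controls lie at 1.27 or above, and the 3 mice with both vectors lie at 0.871 or below.

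The table holds 3 further genes within 1 Mb of a member, and with both vectors in females 0 of the 3 passed (limma), with 3 of 3 under 0.05 before adjustment, as were 29.9% of all tested genes. Sult2a8, known in mouse liver as a bile acid sulfotransferase, was higher in males, at 281 ± 62.8 FPKM in control males against 134 ± 44.2 in control females (log2 difference of females minus males -1.10 ± 0.25, adjusted p from limma = 0.00151). In control females it was at 161, 159 and 83.0 FPKM, and with the Kdm5 vectors at 66.0, 80.9 and 61.6. It fell with the Kdm5 vectors by 0.89 ± 0.25 on the log2 scale (adjusted p from limma = 0.0364). With both vectors it was at 94.6, 76.3 and 68.4 FPKM, and the difference of -0.70 ± 0.25 did not pass (adjusted p from limma = 0.0689). Slc27a5, a bile acid and fatty acid CoA ligase, was at 365 ± 73.7 FPKM in control females and 285 ± 13.8 with both (-0.33 ± 0.14, adjusted p = 0.105). Gm38947 was at 8.79 ± 1.38 and 11.7 ± 1.55 FPKM (0.39 ± 0.17, adjusted p = 0.13).

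Of 17 other listed sulfotransferase genes, 8 were in the table and tested. With both vectors in females, 11.6% of all tested genes were called and 29.9% were under 0.05 before adjustment. Of the 8, 0 passed as higher and 1 as lower (limma, 4 of 8 under 0.05 before adjustment), with a median log2 fold change of -0.30. The one that fell was Sult5a1, from 9.59 ± 3.37 to 3.25 ± 0.33 FPKM (-1.37 ± 0.39, adjusted p from limma = 0.0322). Sult1a1, a phenol sulfotransferase, was at 394 ± 81.8 and 288 ± 26.9 FPKM (-0.44 ± 0.14, adjusted p = 0.0527). Sult3a1, also female-biased, was at 22.1 ± 3.34 FPKM in control females and at most 0.26 in males, and did not differ with both vectors beyond its error (0.03 ± 0.27, adjusted p = 0.956). With control vectors, 4 of the 8 were higher and 2 lower in females than in males, where 42.5% of all tested genes were called. Of 13 genes that supply or clear the sulfate donor, 3 were tested. Cdo1, which makes cysteine sulfinate on the path from cysteine to sulfate and taurine, fell by 0.27 ± 0.07 (adjusted p from limma = 0.0294). Papss2, which makes PAPS, differed by -0.18 ± 0.17 (adjusted p = 0.509).

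Genes that are known to differ between the sexes or to answer to nuclear receptors were counted in the same comparison, females with both vectors against control. In it 11.6% of all tested genes were called and 29.9% were under 0.05 before adjustment. Some genes, such as Cyp2b13 and Slco1a1, stand in more than 1 list. Of 24 tested female-biased liver genes 1 rose and 1 fell, Cyp2b13 by 0.71 ± 0.22 (adjusted p from limma = 0.0418) and Cyp3a44 by -1.54 ± 0.28 (adjusted p = 0.00344), with a list median of 0.09. Like the Sult2a genes, both were near 0 in males, at most 0.27 FPKM for Cyp2b13 and 0.17 FPKM for Cyp3a44. Their adjusted p-values thus also rest on a spread shared with males near 0. Of 24 male-biased genes 0 rose and 3 fell: the transporter Slco1a1 (-2.26 ± 0.62, adjusted p = 0.0292), the urinary protein gene Mup3 (-0.93 ± 0.20, adjusted p = 0.00938) and the glucuronosyltransferase Ugt2b1 (-0.75 ± 0.17, adjusted p = 0.013). Of 13 known targets of the xenobiotic receptors CAR and PXR, Cyp2b13 rose and the carboxylesterase Ces2a fell by 0.52 ± 0.11 (adjusted p = 0.0103). Of 5 nuclear receptors the estrogen receptor Esr1 rose by 0.68 ± 0.17 (adjusted p = 0.0189). Of 2 tested AhR targets 0 passed (limma), with 1 under 0.05 before adjustment. Of 18 bile acid genes 3 rose and 3 fell, among them the peroxisomal enzymes Acox2 (0.53 ± 0.09, adjusted p = 0.00215) and Hsd17b4 (0.44 ± 0.10, adjusted p = 0.0123) and the hydroxylase Cyp2c70 (-1.30 ± 0.37, adjusted p = 0.0336).

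Clock genes, fetal genes and cell type markers were counted between the same groups, where 11.6% of all tested genes were called. Before adjustment 29.9% of all tested genes were under 0.05. Of 12 tested clock genes 4 rose and 3 fell with both vectors, with Dbp higher by 2.24 ± 0.44 (adjusted p from limma = 0.00631), Nr1d1 by 1.95 ± 0.44 (adjusted p = 0.0123), Per3 by 1.24 ± 0.32 (adjusted p = 0.0232) and Tef by 1.05 ± 0.21 (adjusted p = 0.00631). The 3 that fell were Arntl, Cry1 and Nfil3, so the summed level that follows mixes genes that rose and fell. Of the 12, 8 were under 0.05 before adjustment. The summed FPKM of 13 clock genes was 102 to 103 in control females and 139 to 168 with both, and the labels give no hour of collection. The fetal genes Afp and Igf2 rose by 4.92 ± 0.29 (adjusted p from limma = 5.95e-10) and 1.01 ± 0.16 (adjusted p = 0.0021). Afp was at 0.203 ± 0.142 FPKM in control females and 20.9 ± 4.61 with both, and Igf2 at 0.263 ± 0.154 and 1.02 ± 0.204. In males Afp was at most 1.01 and Igf2 at most 0.31 FPKM, and the fit shares its spread with these low values. The 6 endothelial markers in the table summed to 70.6 to 79.5 FPKM in controls and 92.5 to 104.2 with both, and 1 passed, Gpr182 (0.50 ± 0.16, adjusted p = 0.0463). The 5 stellate cell markers summed to 132 to 146 and 169 to 190 FPKM, and 1 passed, Dcn (0.39 ± 0.12, adjusted p = 0.0442). The 4 hepatocyte markers summed to 12166 to 14913 and 14122 to 16475 FPKM and 7 macrophage markers to 414 to 458 and 379 to 497, with 0 passing in either list (limma) and 1 and 0 under 0.05 before adjustment. Of cholangiocyte and lymphocyte markers 1 each was in the table, Sox9 at 0.66 to 1.32 and 1.13 to 1.59 FPKM and Ptprc at 2.40 to 3.36 and 2.68 to 3.78, with 0 passing and 0 under 0.05 before adjustment. Of neutrophil markers 0 were in the table. No marker in the table was at 0 throughout these groups. The part of these differences in the Sult2a result was not tested.

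The 5 genes outside the family that followed the summed Sult2a level most closely over the 12 female libraries, by Pearson correlation of log2 values among 2320 genes, were Col15a1, a collagen (r = 0.90, Spearman rho = 0.89), Dtx3l, a ubiquitin ligase (0.84 and 0.83), Il1rn, the interleukin-1 receptor antagonist (0.84 and 0.87), Letm1, a mitochondrial membrane protein (0.83 and 0.80), and Pde7b, a phosphodiesterase (0.82 and 0.87). These are descriptions, since the libraries share the vector groups and the genes were the highest of many. The tests given next for these genes reuse the female libraries that picked them, so nothing is read from their p-values. Dtx3l was at 8.19 ± 0.994 FPKM in control females and 13.2 ± 0.502 with both vectors and rose by 0.66 ± 0.14 (adjusted p from limma = 0.00743). Its effect of both vectors differed between the sexes by 0.91 ± 0.19 (adjusted p = 0.012). Col15a1 was at 1.13 ± 0.43 and 2.46 ± 0.471 FPKM (0.88 ± 0.30, adjusted p = 0.0558), and the other three did not pass.

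**Figure D5:**
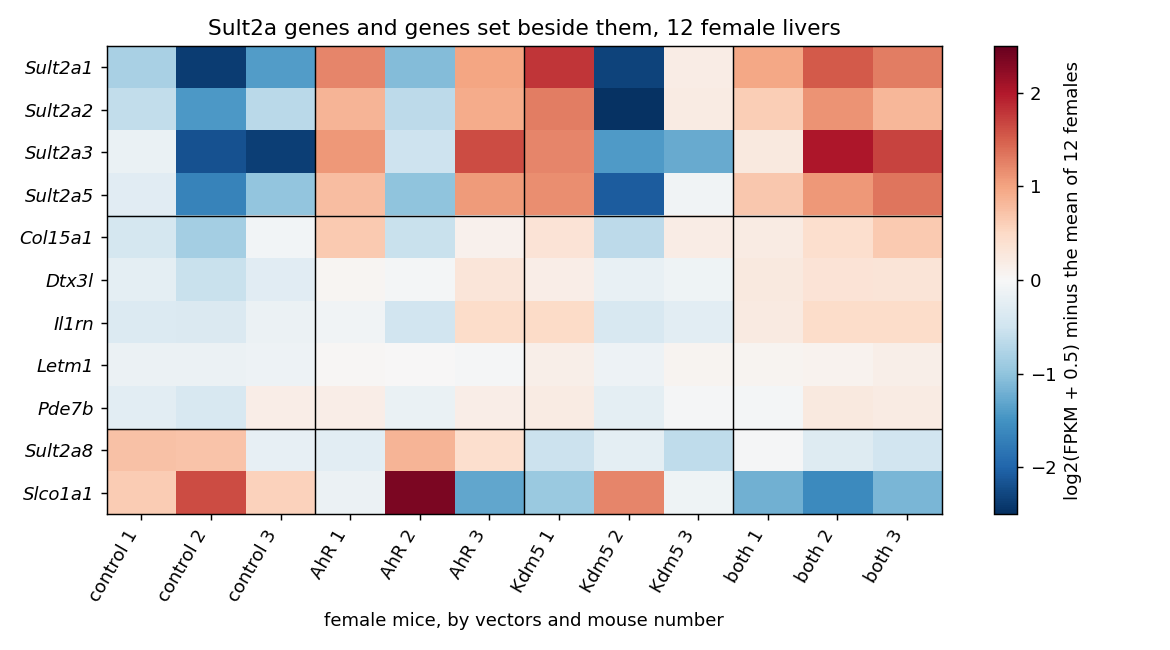
Log2(FPKM + 0.5) minus the mean of the 12 females (colour), for the Sult2a genes, the 5 genes most like their sum, Sult2a8 and Slco1a1 (rows), in each female library by vectors and mouse number (columns). The Sult2a rows are low in control mouse 2 and Kdm5 mouse 2 and above the mean in Kdm5 mouse 1 and the 3 mice with both vectors; Slco1a1 has the opposite colours in most columns.

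Promoter sequence was available from RefSeq for 2 of the 4 members, Sult2a5 and Sult2a3, as windows of 250 bases before to 50 bases after the start (GRCm38.p6). The windows were 87.4% identical over 277 aligned bases. The 120 bases printed here are the ones around the only searched motif found in them, AGTTCA, a core of nuclear receptor sites, read on the opposite strand as TGAACT and shown in capitals. They are chr7:13623749-13623868 on the plus strand for Sult2a5 and chr7:14123170-14123289 on the minus strand for Sult2a3.
Sult2a5: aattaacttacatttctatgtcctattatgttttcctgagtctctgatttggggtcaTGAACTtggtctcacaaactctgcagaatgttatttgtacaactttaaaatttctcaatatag
Sult2a3: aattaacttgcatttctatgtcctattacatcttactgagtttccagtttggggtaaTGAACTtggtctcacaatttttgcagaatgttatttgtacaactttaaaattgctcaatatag
The motif begins at position -161 from the start of Sult2a5 and at -184 from that of Sult2a3. It is found on either strand in 14.0% of 32851 promoter windows of this length. The other motifs, searched on both strands, gave no match in these windows: GCGTG, the core of the AhR response element (in 32.4% of all windows), AGGTCA of nuclear receptor sites (16.3%), TTCNNNGAA of STAT5 (8.30%), the E-box CACGTG (7.15%), and the D-box forms TTACGTAA (0.119%) and TTATGTAA (0.938%). A match or its absence in these letters describes the windows only.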

How the data were processed

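RNA of whole liver was measured in 24 mice in 8 groups of 3, formed from the labels alone. Per the file headers, the authors deposited FPKM, rounded to 2 decimals, though the table's name speaks of raw counts. The aligners HISAT and Bowtie2 and the build GRCm38.p6 are named, per the submitters' processing notes. Their versions, the counting step and strand are not stated. The table holds 2372 genes, and how they were chosen is not stated. Read depth is unknown, so no counting interval is given.

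From these values, log2(FPKM + 0.5) was tested with limma 3.58.1 in R 4.3.3 for the 2299 genes that reached 1 FPKM in 3 or more libraries, leaving out 73. The fit had 1 mean per group in 24 libraries, 16 residual degrees of freedom, an intensity trend and robust moderation, and served 16 comparisons. P-values were adjusted by Benjamini-Hochberg over the tested genes, with a threshold of 0.05. The added 0.5 understates the change of low genes. In simulated data with 200 of 2299 genes changed by 1 log2 in the comparison of females with both vectors and control, 92.5% were recovered and 6.57% of calls were false, with equal spread in all groups, which the Sult2a genes do not have. The changed genes were drawn only above a floor on mean FPKM, so the share recovered does not cover low genes such as Sult2a5.

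Coding identity and shared windows used GENCODE vM21 transcripts; positions and promoters used RefSeq. Genes named were the 4 members, table genes within 1 Mb, up to 4 passing genes of each of 17 lists by size of change in females with both vectors, the 5 genes most like the summed members, and Kdm5c; other sulfotransferase and sulfate donor genes, and Slco1a1 in the closing part, were added after their values were seen. The members and lists were chosen with earlier results of these data known. Alternatives were other pseudocounts, filters, scaling, library weights, moderation, fits on fewer groups, and leaving out each mouse. Replicate numbers follow sample order, and whether mice of a group shared a cage or batch is not given, so p-values measure the spread between these samples. The other targeted genes were not analysed here.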

Additional observations from a re-analysis of the deposited data

How the results depend on the processing

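In females with both vectors against control, all 4 log2 fold changes stayed above 0 under the 9 other settings and with each mouse left out. Over those settings the adjusted p from limma ran from 0.0101 to 0.0998 for Sult2a1 (8 of 9 passed), 0.0265 to 0.179 for Sult2a2 (3), 0.0086 to 0.0851 for Sult2a3 (7) and 0.0231 to 0.132 for Sult2a5 (7). With each of the 6 mice left out in turn, Sult2a3 passed in 6 of 6 fits, Sult2a1 in 4, Sult2a5 in 1 and Sult2a2 in 0. The count of members passing was 3, but 4 with median-of-ratios scaling and with library weights, 2 on the compared groups alone, 0 in females alone and 1 to 3 with 1 mouse left out. For females against males it was 4, but 2 on the compared groups alone and 2 to 4 with 1 mouse left out. For the sex difference of both vectors it was 0, but 1 with median-of-ratios scaling, 4 on the compared groups alone and 0 to 1 with 1 mouse left out, all with males at or near 0. Leaving out 1 mouse gave 0 to 4 for both against the Kdm5 vectors and 0 to 2 for the Kdm5 vectors against control. Some differences that did not pass changed sign. The Sult2a2 sex difference for the Kdm5 vectors was -0.36 with a pseudocount of 0.1, and the female interaction of the summed members was -0.27, against 0.11 for Sult2a5. With 1 mouse left out, the female interaction ran from -1.63 to 0.42 for Sult2a1, -1.17 to 0.70 for Sult2a2, -1.19 to 0.37 for Sult2a3 and -0.76 to 0.86 for Sult2a5. Both against the AhR vector ran from -0.039 to 0.75 for Sult2a2 and -0.037 to 1.13 for Sult2a3. The Kdm5 vectors against control ran from -0.22 to 1.65 for Sult2a2 and -0.10 to 1.51 for Sult2a5, and their sex difference from -0.50 to 1.37 and -0.10 to 1.51. The cause was not tested, beyond the smaller number of mice. Over all genes, females with both vectors gave 266 calls, but 594 with library weights, 29 in females alone, 21 on the compared groups alone and 44 to 238 with 1 mouse left out. The calls of other comparisons moved as widely, so their shares of genes called are rough. The Kdm5 vectors against control in females gave 158 calls, but 1 to 331 over the other settings and 23 to 279 with 1 mouse left out. The AhR vector gave 5 (1 to 9 and 3 to 12), both against the AhR vector 16 (0 to 37 and 5 to 36), both against the Kdm5 vectors 48 (0 to 69 and 0 to 95), and the sex difference of both 136 (98 to 384 and 69 to 188). Females against males gave 709 higher and 267 lower calls, but 528 and 445 with median-of-ratios scaling, which moved the median of all genes from 0.15 to 0.03. No paired analysis was possible because replicate numbers follow sample order and pair nothing. Limits are the 3 mice a group, the unknown depth, and reads shared by the copies.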

Other observations

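Slco1a1, a male-biased gene for an organic anion transporter of the hepatocyte membrane, ran against the summed Sult2a level over the 12 female libraries. Its Pearson r was -0.86, place 2319 of 2320 genes, and it was singled out after its values were seen. It was at 7.69, 15.7 and 7.33 FPKM in control females and at 4.21, 26.4 and 1.62 with the AhR vector. With the Kdm5 vectors it was at 2.25, 11.7 and 4.36 FPKM, and with both at 1.79, 1.24 and 1.88. The mice with the lowest Sult2a1 of their group, control mouse 2, AhR mouse 2 and Kdm5 mouse 2, had the highest Slco1a1 of their group. With both vectors this did not hold, since mouse 1 had the lowest Sult2a1 and mouse 3 the highest Slco1a1. In males Slco1a1 was at 72.1 ± 25.3 FPKM with control vectors and 80.7 ± 18.9 with both (SD, n = 3 each). The correlation is a description over libraries that share the vector groups.

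Other genes set beside the summed Sult2a level in the same 12 libraries had r of 0.64 for Afp, -0.45 for Sult2a8, -0.43 for Sult3a1, 0.28 for Dbp and 0.10 for Cyp2b9.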
